A study of Mus musculus with 4 samples.

Results

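The members described here are the peaks at the ends of mouse chromosomes 1 to 19 in TIMELESS chromatin immunoprecipitation sequencing (ChIP-seq) of the hippocampus. On each chromosome the span ran from the lowest peak start to the highest peak end over all 4 peak lists, and a peak belonged to an end window when its summit lay in the first 3 Mb or the last 3 Mb of that span. The 38 windows held 449, 1281 and 4002 peaks of TIMELESS replicates 1, 2 and 3 and 74 peaks of the input, out of 6875, 23058, 82454 and 282 peaks on these chromosomes. Together the windows made up 114 Mb, or 4.74%, of the spans. They held 6.53%, 5.56% and 4.85% of the peaks of TIMELESS replicates 1, 2 and 3, and 26.2% of the peaks of the input.

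There were 3 TIMELESS libraries, made with an anti-TIMELESS antibody from the hippocampus of adult C57BL/6N mice, and 1 input library from the same tissue and strain that underwent no immunoprecipitation. Neither the sex of the mice nor whether the libraries came from separate animals was stated, so the spread between libraries may be technical. With duplicate positions removed, the calls rest on 8425679 tags in TIMELESS replicate 1, 13572739 in replicate 2, 30454118 in replicate 3 and 14669253 in the input. The header of the list labelled TIMELESS replicate 3 names an input as its source, so leading values are also given without that library or library by library.

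Mouse chromosomes carry the centromere at or near one end, and in the reference genome it lies on the side where coordinates begin. The other end is the free telomere, a long array of the repeat TTAGGG bound by the shelterin proteins, with subtelomeric repeats inside it. Reference chromosomes begin and end with placeholder bases, and no genome was used here to place the first and last peaks of a span against them. TIMELESS is a clock-associated protein that also travels with the replication fork, where with TIPIN it couples the helicase to the polymerases. In human cells it is known to help forks pass through telomere repeats.

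No sequence of the outermost peaks was read here. What can be shown of the windows are promoters, 300 bases around gene starts in RefSeq sequences of GRCm38.p6, which is the mm10 build of the files. Of 882 promoters in centromere-side windows and 1070 in telomere-side windows, 5 and 7 met a peak of at least 1 TIMELESS library, or 0.567% and 0.654%, against 0.543% of 29443 promoters in the rest. By library, TIMELESS replicates 1, 2 and 3 met 1, 1 and 4 promoters on the centromere side and 0, 0 and 7 on the telomere side, so without replicate 3 no telomere-side promoter was met. No promoter of the windows met an input peak. The promoter of Cabp2, which encodes a calcium-binding protein of the calmodulin family, was the only one met by 2 libraries. The promoter of Tmem267, which encodes a transmembrane protein, lay under the peak of highest fold, and it is shown because the body of this gene held 5 regions common to all 3 TIMELESS libraries. Both run 5′ to 3′ on the plus strand, and capitals mark bases under the peak of highest fold.
Cabp2 (chr19:4082238-4082537): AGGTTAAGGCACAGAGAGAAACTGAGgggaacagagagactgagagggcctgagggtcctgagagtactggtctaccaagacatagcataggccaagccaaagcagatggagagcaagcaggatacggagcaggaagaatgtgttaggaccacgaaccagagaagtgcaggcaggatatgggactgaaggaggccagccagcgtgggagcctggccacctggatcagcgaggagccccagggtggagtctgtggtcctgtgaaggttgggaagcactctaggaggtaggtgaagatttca
Tmem267 (chr13:119488223-119488522): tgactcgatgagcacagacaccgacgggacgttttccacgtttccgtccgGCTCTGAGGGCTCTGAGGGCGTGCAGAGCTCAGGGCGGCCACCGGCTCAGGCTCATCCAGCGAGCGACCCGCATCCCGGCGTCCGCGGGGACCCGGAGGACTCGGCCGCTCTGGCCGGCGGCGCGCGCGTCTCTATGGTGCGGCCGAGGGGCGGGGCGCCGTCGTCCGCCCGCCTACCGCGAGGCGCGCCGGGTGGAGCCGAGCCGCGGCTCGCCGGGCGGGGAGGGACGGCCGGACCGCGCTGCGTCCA
Fold enrichment is the authors' value of a peak's height over the background of its own library, and pileup is the number of fragments stacked at the summit. At Cabp2 the fold was 4.10 in TIMELESS replicate 2 and 3.06 in TIMELESS replicate 3, and 26 bases of the promoter lay under the peak of replicate 2. At Tmem267 a single peak of TIMELESS replicate 3, with fold 6.83 and pileup 77, covered 250 of the 300 bases, and the promoter had a GC content of 76.0%. The antisense gene 3110070M22Rik starts within the same peak and shares most of this stretch. The letters TTAGGG, searched on both strands, were in 11.2% of promoters in centromere-side windows, 9.91% in telomere-side windows and 10.6% in the rest. No promoter of the windows held 2 tandem copies of TTAGGG, against 4 of 31396 promoters in all, or 0.0127%.

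Peaks were denser at the centromere-side end than in the rest of the chromosomes in all 3 TIMELESS libraries. Replicates 1, 2 and 3 had 4.60, 12.4 and 40.1 peaks per Mb in the centromere-side windows, against 2.81, 9.51 and 34.3 in the rest. The ratio was 1.64 in replicate 1, 1.30 in replicate 2 and 1.17 in replicate 3, a mean of 1.37 ± 0.242 (SD, n = 3). It was smallest in the deepest library and largest in the shallowest. In an exact sign-flip permutation test over the 3 libraries the two-sided p was 0.25, which is the smallest that 3 libraries can give. No comparison over these libraries could therefore pass a threshold of 0.05.

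At the telomere-side end no common direction was seen. There were 3.28, 10.1 and 30.2 peaks per Mb in replicates 1, 2 and 3, and the ratios to the rest were 1.17, 1.06 and 0.880, a mean of 1.04 ± 0.146 (SD, n = 3; exact two-sided p = 0.75). Replicates 1 and 2 lay above 1 and replicate 3 lay below it. Without replicate 1 the mean was 0.972, and without replicate 3 it was 1.12.

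The input was far more concentrated at the ends than any TIMELESS library. It had 0.912 peaks per Mb in the centromere-side windows and 0.386 in the telomere-side windows, against 0.0909 in the rest, so the ratios were 10.0 and 4.25. These rest on 52 and 22 peaks. Of the 52, chromosome 9 held 17, chromosome 11 held 9 and chromosome 14 held 7. No input peak lay in 8 of the 19 centromere-side windows and 3 of the 19 telomere-side windows. With 1 input library no test was possible between the kinds of library.

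The density was highest in the outermost 0.5 Mb of both ends. There the density over the rest was 2.74, 1.87 and 1.39 in TIMELESS replicates 1, 2 and 3 on the centromere side, and 1.76, 1.63 and 1.58 on the telomere side. In the input it was 47.5 on the centromere side and 17.4 on the telomere side. Since the outermost peak sets the edge, this bin must hold a peak of at least 1 library on every chromosome. On the telomere side 15 of 47, 17 of 147 and 19 of 514 of its peaks in TIMELESS replicates 1, 2 and 3 lay within 1 kb of the edge. In the input 13 of 15 did. On the centromere side these were 5 of 73, 5 of 169 and 18 of 452, and 4 of 41 in the input. In the next 0.5 Mb the TIMELESS libraries had 1.35, 1.28 and 1.139 on the centromere side and 1.16, 0.985 and 0.848 on the telomere side. With the outermost 0.5 Mb left out, a choice made after seeing the data, the mean ratio was 1.24 on the centromere side and 0.914 on the telomere side. In the input the ratios were then 2.55 and 1.62. Without only the peaks within 1 kb of the edge, the telomere-side ratio of the input was 1.74, since 13 of its 22 peaks there are terminal peaks.

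**Figure D1:**
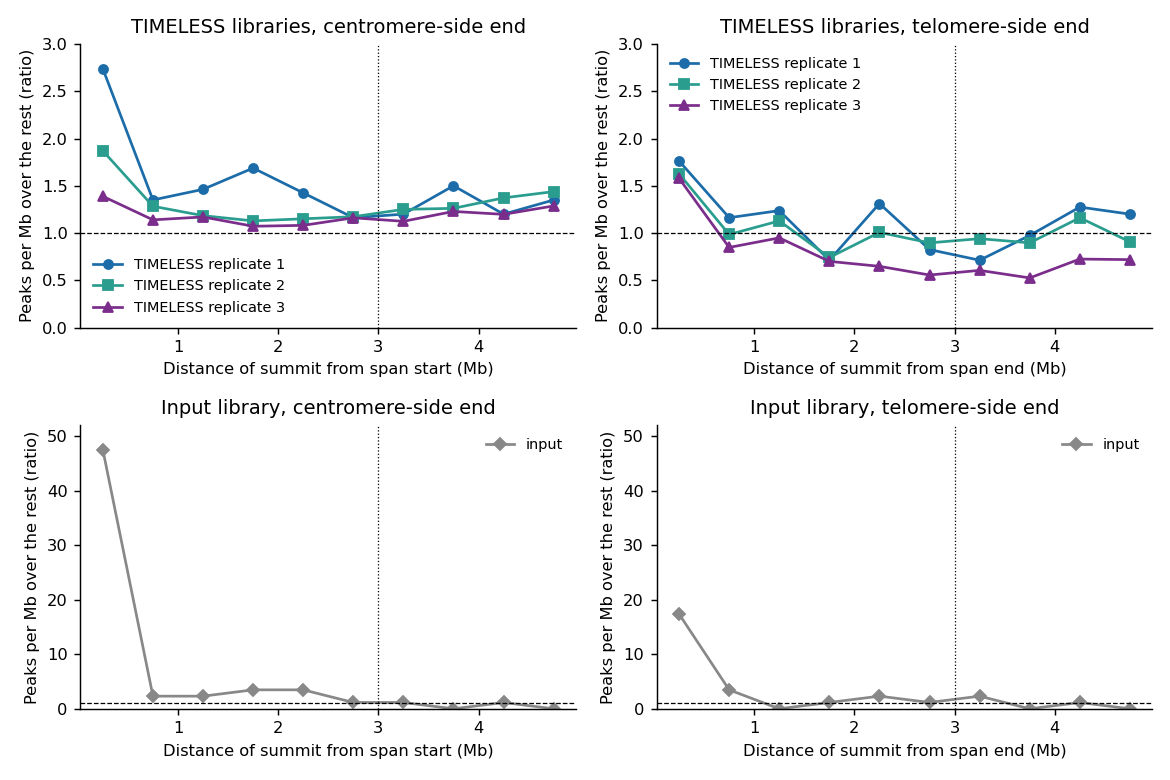
Peaks per Mb in bins of 0.5 Mb, divided by the density in the rest of the chromosomes, against the distance of the summit from the span start (left) or the span end (right). TIMELESS replicates are above and the input is below on a wider axis; the dashed line is a ratio of 1 and the dotted line is the 3 Mb edge of the windows. The outermost bin is the highest in each library on the centromere side (2.74, 1.87, 1.39 and, in the input, 47.5).

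The last kilobase before the span end held the highest fold of each TIMELESS library. Because the outermost peak sets the edge, at least 1 library must have a peak there on every chromosome, and the distance of 1 kb was chosen after the data were seen. What the rule does not fix is how many libraries share that peak and how high it is. A peak lay within 1 kb of the span end on 15, 17 and 19 chromosomes in TIMELESS replicates 1, 2 and 3, and on 13 in the input. All 4 libraries had it on 13 chromosomes, namely 1, 2, 3, 5, 7, 10, 11, 12, 13, 14, 16, 18 and 19.

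On chromosome 13 the terminal region at chr13:120321265-120321806 had folds of 27.3, 27.9 and 26.8 in TIMELESS replicates 1, 2 and 3, against 30.3 in the input. This peak had the highest fold of each TIMELESS library on chromosomes 1 to 19. Its summit lay 3.28 kb from Tcstv3, a gene known from the early embryo and embryonic stem cells. On chromosome 3 the region at chr3:159939261-159939844 had folds of 26.2, 27.8 and 25.3 in the TIMELESS replicates, against 31.5 in the input. Its summit lay 0.911 kb from Wls, which encodes the carrier that takes Wnt proteins to the cell surface. Both regions were higher in the input than in every TIMELESS library.

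Chromosome 1 ended in a region at chr1:195371561-195372119 with folds of 26.3, 27.5 and 26.0 in TIMELESS replicates 1, 2 and 3, against 26.5 in the input. The nearest protein-coding gene was Cr2, a complement receptor gene, 195 kb away. On chromosome 16 the terminal folds were 26.1, 27.1 and 24.6 in the TIMELESS replicates, against 30.05 in the input, and on chromosome 12 they were 23.4, 24.4 and 20.3, against 29.8. On chromosome 11 the order was the other way round. The region at chr11:121982198-121982703 had folds of 24.7, 21.8 and 23.8 in TIMELESS replicates 1, 2 and 3, against 13.7 in the input.

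Over the 13 chromosomes the mean fold of the TIMELESS libraries was between 16.4 and 27.3, with a median of 22.9, and the fold in the input was between 13.7 and 31.5, with a median of 26.5. The ratio of the TIMELESS mean to the input was between 0.761 and 1.72, with a median of 0.908. The input was above all 3 TIMELESS libraries on 9 of the 13 chromosomes and below all 3 on 2, chromosomes 10 and 11. Fold is set against the background of the same library, so these ratios also carry each library's depth, background and fragment length. The fragment length was 286, 265 and 260 bp in TIMELESS replicates 1, 2 and 3, against 218 bp in the input. How much each of these adds to the difference in fold was not tested. On 4 of the 9 chromosomes the pileup of TIMELESS replicate 3 was at 90.8% to 99.2% of the highest value possible, against 41.3% to 68.1% in the input. There replicate 1 was at 66.3% to 82.2% and replicate 2 at 68.9% to 90.2%. Whether that limit, described next, lowered the TIMELESS folds was not tested. Of the 20 highest folds in each list, 10, 11 and 9 in TIMELESS replicates 1, 2 and 3 were terminal peaks, and 11 in the input.

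The terminal peaks differed in height between chromosomes. On chromosome 7 the pileup was 470, 478 and 516 in TIMELESS replicates 1, 2 and 3, against 297 in the input. On chromosome 5 it was 75, 79 and 94 in the TIMELESS replicates, against 56 in the input, at a region 83.4 kb from Rfc3, which encodes a subunit of the clamp loader of the replication fork. Pileup did not grow in step with depth. Per 1000000 tags kept, the median pileup over the 13 chromosomes was 31.7, 19.8 and 9.79 in TIMELESS replicates 1, 2 and 3, against 12.3 in the input. Since 1 tag is kept per position and strand, pileup cannot exceed 2 times the fragment length, which is 572, 530 and 520 in the TIMELESS libraries and 436 in the input. The terminal peak of chromosome 7 reached 82.2%, 90.2% and 99.2% of that limit in the TIMELESS replicates, and 68.1% in the input. A pileup this near the limit cannot be told apart from a higher one.

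The other 6 chromosomes had lower terminal peaks and none in the input. On chromosome 17 the folds were 10.0, 8.89 and 8.98 in TIMELESS replicates 1, 2 and 3. On chromosome 6 they were 5.68, 3.76 and 7.45, at a summit 0.306 kb from the predicted gene Gm21814. On chromosome 4 replicates 2 and 3 had folds of 5.13 and 14.5, and on chromosome 8 they had 5.13 and 7.64. Chromosomes 9 and 15 had a terminal peak in replicate 3 alone, with folds of 4.59 and 4.31.

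**Figure D2:**
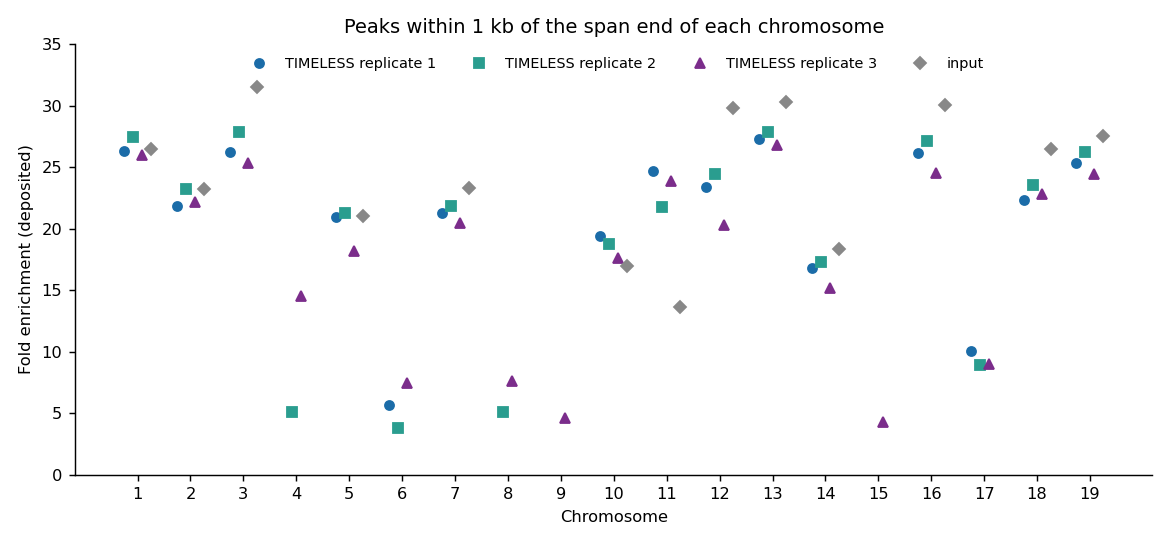
Deposited fold enrichment of the peak within 1 kb of the span end, by chromosome and library; a missing point means that the library had no peak there. On 13 chromosomes all 4 libraries have a peak, with input folds between 13.7 and 31.5, and on the other 6 the input has none.

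Within 1 kb of the span start a peak common to the libraries was rare. TIMELESS replicates 1, 2 and 3 had a peak within 1 kb of the start on 5, 5 and 17 chromosomes, and the input on 4. On 13 chromosomes replicate 3, the deepest library, alone had one and so set the edge there. Regions common to the libraries but further in are then not counted. Such regions of all 4 libraries lay 7.36 kb inside chromosome 18 and 17.7 kb inside chromosome 4. The rarity therefore depends on the edge rule. All 4 libraries had a peak within 1 kb of the start on chromosomes 2, 9 and 17. At chr2:3049945-3050625 the folds were 16.1, 16.6 and 17.2 in TIMELESS replicates 1, 2 and 3, against 17.0 in the input, with Fam171a1 the nearest protein-coding gene at 64.0 kb. At chr17:3081399-3082854, over the pseudogene Pisd-ps2, the folds were 5.40, 5.25 and 5.81 in the TIMELESS replicates, against 5.39 in the input. In both places the input lay within the range of the TIMELESS libraries.

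The strongest region of the centromere side lay 43.1 kb inside chromosome 12. At chr12:3109705-3110267 the folds were 24.3, 22.8 and 18.7 in TIMELESS replicates 1, 2 and 3, against 33.1 in the input, where it was the highest fold of the library. The nearest protein-coding gene was Rab10, a small GTPase of vesicle transport, 137 kb away.

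Chromosome 9 began with a block of very high pileup and low fold. Its first 50 kb held 14, 14 and 9 peaks of TIMELESS replicates 1, 2 and 3 and 17 of the input, and 17 is also the largest number of input peaks in any end window. The median pileup there was 533, 520 and 520 in the TIMELESS replicates and 329 in the input. That is 93.2%, 98.1% and 100% of the limit in the TIMELESS libraries and 75.5% in the input. The median fold was only 1.62, 1.46 and 1.43 in the TIMELESS replicates and 2.68 in the input. No protein-coding gene lay in this block, and the nearest was Alkbh8, a tRNA-modifying enzyme gene, over 297 kb away at its closest. In each library most of the peaks that reached 50% of the limit lay in end windows, 24 of 35, 27 of 43 and 29 of 44 in TIMELESS replicates 1, 2 and 3, and 20 of 29 in the input. Without the block of chromosome 9 the end windows held 10 of 21, 13 of 29 and 20 of 35 such peaks in the TIMELESS replicates, and 5 of 14 in the input.

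**Figure D3:**
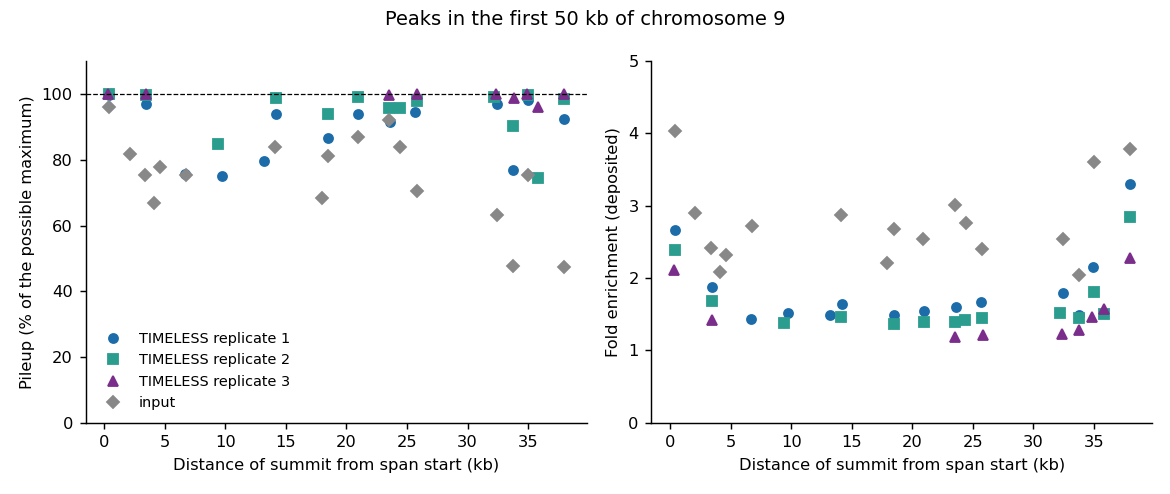
Peaks in the first 50 kb of chromosome 9, by distance of the summit from the span start. Pileup as a percent of the possible maximum is on the left, with the maximum dashed, and deposited fold enrichment is on the right. TIMELESS pileups lie near the maximum (medians 93.2%, 98.1% and 100%) while folds are low (medians 1.62, 1.46 and 1.43; 2.68 in the input).

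The gene with the most shared regions in the end windows was Sfi1, whose product binds centrins at the centrosome. A shared region is a merged region with peaks of at least 2 TIMELESS libraries. Sfi1, at chr11:3131850-3203347, held 17 of them, of which 10 had peaks of all 3 libraries and 4 lay over an input peak. It held 11, 22 and 29 peaks of TIMELESS replicates 1, 2 and 3 and 8 peaks of the input. In the first 150 kb of the chromosome, which contains the gene, the median fold was 3.25, 2.67 and 2.57 in the TIMELESS replicates and 2.62 in the input. Only 3, 4 and 4 of the TIMELESS peaks in that stretch lay over an input peak, and TIMELESS peaks met 4 of the 8 input peaks in Sfi1.

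Pileup and fold of the typical peak in the windows were close to those of the rest. The median pileup in the end windows was 14, 14 and 24 in TIMELESS replicates 1, 2 and 3, against 13, 15 and 25 in the rest. The mean of the 3 ratios was 0.990 ± 0.0764 (SD, n = 3; exact two-sided p = 1), and it was 1.02 without replicate 2 and 1.01 without replicate 3. In the input the median pileup was 70.5 in the end windows, against 26 in the rest. Median fold in the telomere-side windows was 5.11, 4.45 and 3.67 in the TIMELESS replicates, against 4.90, 4.40 and 3.64 in the rest, higher in 3 of 3 libraries (exact two-sided p = 0.25). In the centromere-side windows it was 4.81, 4.30 and 3.54, lower than the rest in 3 of 3 libraries (exact two-sided p = 0.25). Peaks with a fold of at least 10 made up 11.2%, 3.99% and 1.40% of the peaks in telomere-side windows, against 2.26%, 0.900% and 0.456% in the rest. In the input they made up 68.2% in the telomere-side windows, against 13.5% in the rest. Most of these telomere-side peaks were the terminal peaks already described. They were 14 of 21, 13 of 23 and 14 of 24 in TIMELESS replicates 1, 2 and 3, and 13 of 15 in the input.

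Sharing between TIMELESS libraries was slightly more frequent in the windows. In the end windows 76.6%, 48.1% and 14.6% of the peaks of replicates 1, 2 and 3 overlapped a peak of another TIMELESS library, against 75.8%, 45.6% and 12.1% in the rest. Over chromosomes 1 to 19 the shares were 75.9%, 45.8% and 12.2%. The mean difference was 1.92 ± 0.958 percentage points (SD, n = 3), higher in 3 of 3 libraries (exact two-sided p = 0.25). Without peaks over input peaks it was 0.451 points.

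Overlap with input peaks was more frequent in the windows, where input peaks were themselves 7.14 times as dense as in the rest. In the end windows 10.2%, 3.83% and 1.12% of the peaks of replicates 1, 2 and 3 lay over an input peak, against 1.20%, 0.432% and 0.135% in the rest. Over chromosomes 1 to 19 the shares were 1.79%, 0.62% and 0.183%. The difference of 4.48 ± 4.14 percentage points (SD, n = 3; exact two-sided p = 0.25) was positive in 3 of 3 libraries, and it was 6.22 points without replicate 3 and 2.19 without replicate 1. Input peaks numbered 74 in the windows, so these overlaps rest on 46, 49 and 45 TIMELESS peaks. Of these peaks 12, 12 and 8 lay in the first 50 kb of chromosome 9. The terminal peaks of 13 chromosomes were also among them in each library. Seen from the input, peaks of all 3 TIMELESS libraries met 19 of 22 input peaks in the telomere-side windows, or 86.4%, and 22 of 52 in the centromere-side windows, or 42.3%. In the rest they met 76 of 208, or 36.5%, and over chromosomes 1 to 19 the share was 41.5%.

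**Figure D4:**
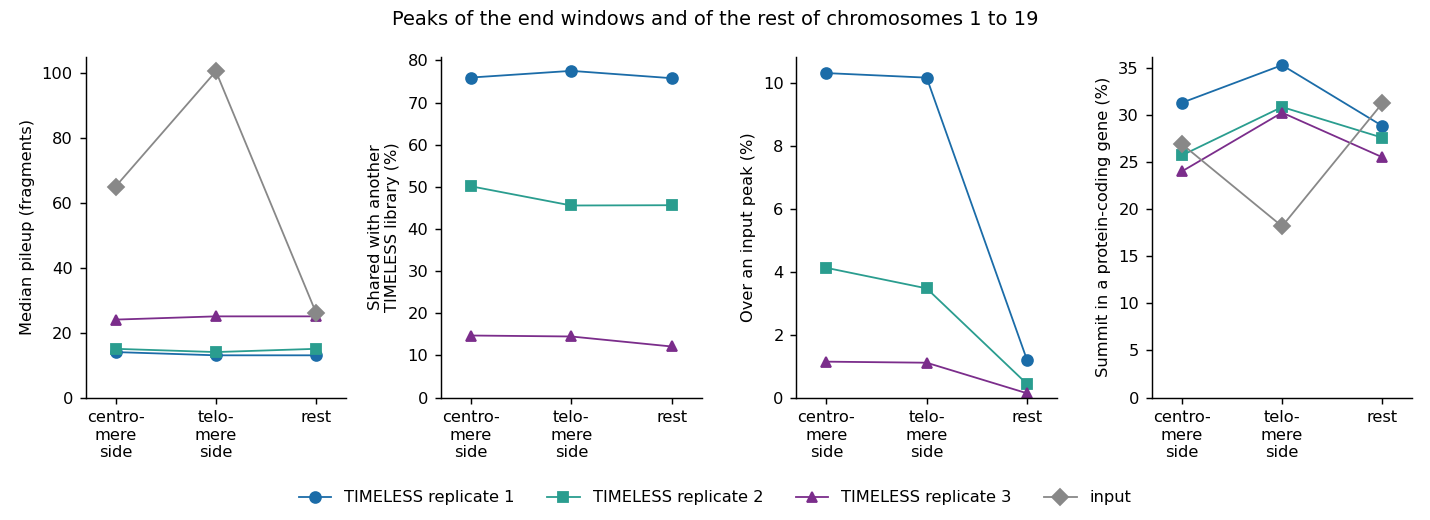
Median pileup, share of peaks that overlap another TIMELESS library, share over an input peak and share with the summit in a protein-coding gene, for centromere-side windows, telomere-side windows and the rest, with 1 point per library. Pileup and sharing of the TIMELESS libraries are nearly level, while the share over an input peak is highest in the windows (10.2% against 1.20% in replicate 1).

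Merging the 3 TIMELESS libraries gave 4833 regions in the end windows. Of these 646, or 13.4%, were shared by at least 2 libraries, and 217, or 4.49%, by all 3. Over all 97631 regions of chromosomes 1 to 19 the shares were 11.4% and 3.35%. Without replicates 1, 2 and 3 in turn the windows held 523, 259 and 297 shared regions. Among the 646 shared regions, 46 lay over an input peak, or 7.12% (exact 95% interval 5.26% to 9.38%, for counting error only), against 0.822% in the rest and 1.19% over all shared regions. Without replicate 3 it was 14.1% in the windows, against 1.73% in the rest. Among regions of all 3 libraries 18.0% did so in the windows, against 2.36% in the rest. There were 6.49 shared regions per Mb in the centromere-side windows and 4.84 in the telomere-side windows, against 4.57 in the rest. Without replicate 3 the values were 2.98 and 2.23, against 1.81 in the rest.

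Chromosomes differed widely. The centromere-side windows held between 10 and 36 shared regions with a median of 18, and the telomere-side windows between 7 and 28 with a median of 14. The rest was divided into 754 tiles of 3 Mb, which had a median of 13 and a 95th percentile of 24. The tile median was exceeded by 15 of the 19 centromere-side and 11 of the 19 telomere-side windows. Of the tiles 4.24% exceeded the 95th percentile. So did 2 of the 19 centromere-side windows, on chromosomes 14 and 9, with 36 and 26 regions. On the telomere side chromosomes 3 and 14 did, with 28 and 26. The lowest were chromosomes 16 and 2 on the centromere side, with 10 and 11, and chromosomes 2 and 7 on the telomere side, with 7 each. For input peaks the 95th percentile of tiles was 1 peak, and 3.71% of the tiles exceeded it. So did 8 centromere-side and 4 telomere-side windows.

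**Figure D5:**
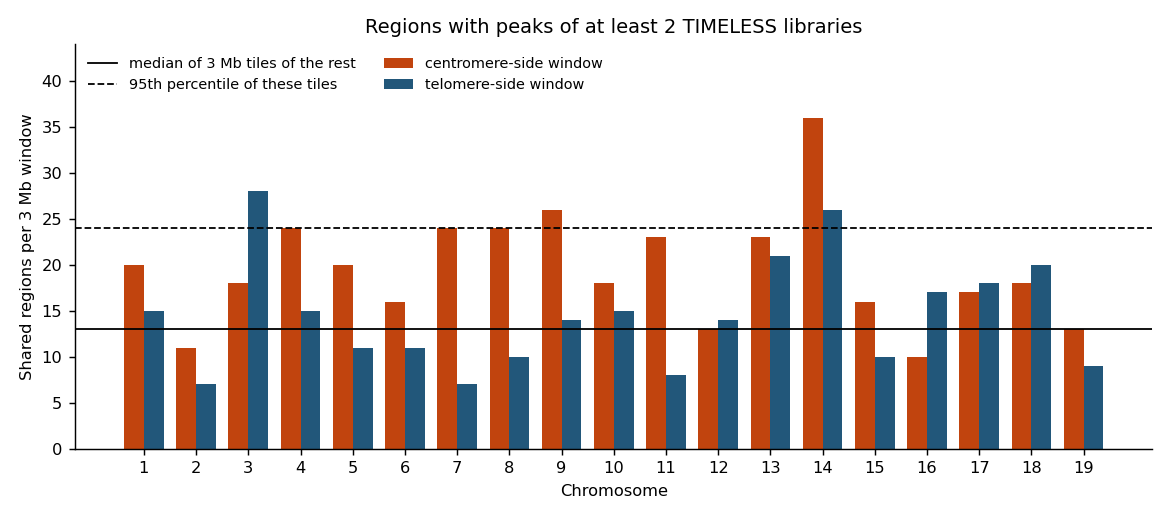
Shared regions in the centromere-side and telomere-side window of each chromosome, with the median (13, solid) and the 95th percentile (24, dashed) of 754 tiles of 3 Mb in the rest. The centromere-side window of chromosome 14 is the highest at 36.

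The centromere-side window of chromosome 14 stood out in TIMELESS replicate 1. It held 60 peaks of replicate 1, 49 of replicate 2, 179 of replicate 3 and 7 of the input. The 60 peaks were 22.9% of that library's peaks on the centromere side, and no tile of the rest held more than 45. Folds there were moderate, with medians of 5.25, 4.79 and 3.82 in the TIMELESS replicates and 5.82 in the input. The window contains a cluster of predicted genes, among them Gm26650 with 5 shared regions and Gm2977 with a region of all 3 libraries at folds of 7.17, 9.56 and 8.27. Copies in such a cluster can be near-identical, so the copy from which a read came is uncertain. Without chromosome 14 the mean density over the rest was 1.25 on the centromere side.

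Summits fell inside protein-coding genes about as often as in the rest on the centromere side and somewhat more often on the telomere side. In telomere-side windows 35.3%, 30.8% and 30.3% of the summits of TIMELESS replicates 1, 2 and 3 lay in such a gene, against 28.8%, 27.6% and 25.5% in the rest, a difference of 4.82 ± 1.60 percentage points (SD, n = 3; exact two-sided p = 0.25). Protein-coding genes covered 44.9% of the telomere-side windows and 39.9% of the centromere-side windows, against 40.8% of the rest. In centromere-side windows the shares were 31.3%, 25.7% and 24.0%. Over both ends together the difference was 1.91 ± 1.95 points, and without chromosome 14 it was -0.729 points. In the input 18.2% of the summits of telomere-side windows lay in a protein-coding gene, against 31.3% in the rest.

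The windows were rich in genes, with 10.7 and 12.6 protein-coding genes per Mb on the centromere and telomere side, against 8.40 in the rest. Olfactory receptor genes numbered 5 on the centromere side and 70 on the telomere side. That was 0.0877 and 1.23 per Mb, against 0.587 in the rest. Vomeronasal receptor genes of the Vmn1r and Vmn2r families numbered 34 and 13, or 0.596 and 0.228 per Mb, against 0.249 in the rest. A shared region lay in 9.002% of the protein-coding genes of centromere-side windows and 5.96% of those of telomere-side windows, against 9.21% in the rest.

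After Sfi1, the protein-coding genes with the most shared regions on the centromere side were Gm26650 with 5, Cdk14 with 4, and Rp1, Rgs20 and Camk1d with 3 each. These counts are not scaled for gene length. Per 100 kb, Sfi1 held 23.8 shared regions, Gm26650 2.77, Cdk14 0.693, Rp1 1.02, Rgs20 1.87 and Camk1d 0.712. The centromere-side windows as a whole held 6.49 per Mb, which is a longer unit. In equal units Cdk14 and Camk1d were close to these windows as a whole. Sfi1, Gm26650, Rp1 and Rgs20 were above them. Cdk14 encodes a cyclin Y-dependent kinase, Rp1 a photoreceptor microtubule protein, Rgs20 a regulator of G protein signalling and Camk1d a calmodulin-dependent kinase. On the telomere side Fgf14 held 7, Itgbl1 6, Nalcn 6, Tmem267 5, and Pcca, Dscam and Far2 3 each. Per 100 kb that was 0.995 in Fgf14, 1.88 in Itgbl1, 1.71 in Nalcn, 4.09 in Tmem267, 0.740 in Pcca, 0.514 in Dscam and 2.22 in Far2. The telomere-side windows as a whole held 4.84 per Mb, again the longer unit. In equal units Dscam was close to these windows as a whole, and the other genes named were above them. Fgf14 encodes a regulator of neuronal sodium channels, Nalcn a sodium leak channel that sets the resting potential, Itgbl1 an integrin beta-like protein, Pcca a mitochondrial carboxylase subunit, Dscam a neuronal cell adhesion molecule and Far2 a fatty acyl-CoA reductase. Fgf14, Itgbl1, Nalcn and Pcca are on the telomere-side end of chromosome 14, where they are 319 to 703 kb long. Fgf14, of 703 kb, held 2, 8 and 50 peaks of TIMELESS replicates 1, 2 and 3 and no input peak. In Tmem267 all 5 shared regions had peaks of all 3 libraries and 3 lay over an input peak.

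Some high regions over input peaks lay well inside the windows. At chr6:4923738-4924340, in Ppp1r9a, which encodes the actin-binding scaffold neurabin of dendritic spines, the folds were 16.8, 14.0 and 19.02 in TIMELESS replicates 1, 2 and 3, against 7.65 in the input. All 3 TIMELESS libraries were above the input there. At chr14:122568803-122569253, in Pcca, the mean fold was 17.0 over the TIMELESS libraries and 12.2 in the input. At chr6:147236586-147237071, 15.3 kb from the hormone gene Pthlh, it was 22.5 over the TIMELESS libraries and 21.9 in the input. The last 2 regions were picked after their values were seen.

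Away from input peaks, 178 regions of all 3 TIMELESS libraries lay in the windows, 1.56 per Mb, against 1.30 in the rest. That was 1.82 per Mb on the centromere side and 1.298 on the telomere side, against 1.302 in the rest. The highest of these on the centromere side lay in the estrogen receptor gene Esr1 at chr10:4730083-4730616, with folds of 16.5, 19.9 and 14.1 in TIMELESS replicates 1, 2 and 3. At chr5:3479809-3480432, in Cdk6, which encodes a cyclin D-dependent kinase of the cell cycle, the folds were 10.8, 13.1 and 8.57 in TIMELESS replicates 1, 2 and 3. At chr17:4626068-4626676, with Arid1b of the BAF chromatin remodelling complex as the nearest protein-coding gene 368 kb away, they were 19.8, 8.29 and 10.7, and replicate 1 was the highest. At chr19:3038715-3039411, only 22.3 kb from the span start, they were 9.99, 8.40 and 8.15. At chr3:5652410-5652966, 74.0 kb from the peroxisome gene Pex2, they were 7.74, 8.22 and 7.97, the most even of these. On the telomere side the highest lay in Grk5, which encodes a G protein-coupled receptor kinase, at chr19:60924487-60924971, with folds of 18.5, 20.6 and 19.7. The next was at chr9:123924285-123924761 near the chemokine receptor gene Ccr1, with 19.8, 18.9 and 16.0, and then one at chr7:144133997-144134476 in the postsynaptic scaffold gene Shank2, with 10.4, 17.9 and 9.36. At chr12:117588274-117588796 in Rapgef5, which encodes an activator of Rap GTPases, they were 13.9, 13.7 and 6.88, and replicate 3 was the lowest. Also on chromosome 12, at chr12:117861331-117862280 in Cdca7l, they were 7.91, 8.12 and 7.45.

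Genes of the study's themes that lay in the windows are counted among those found on these chromosomes. For comparison, 1332 of 20560 protein-coding genes, or 6.48%, lay in the windows. A shared region lay in 9.002% of those on the centromere side and 5.96% of those on the telomere side. Each list had too few genes in the windows to be set against those shares. Of 26 genes of cyclic AMP synthesis and degradation 3 lay in the windows, the adenylyl cyclase genes Adcy3 and Adcy9 and the phosphodiesterase gene Pde1b. None held a shared region, although Adcy9 held 1 peak of TIMELESS replicate 1 and 5 of replicate 3, with highest folds of 6.17 and 5.18. Of 21 genes for PKA, Epac, CREB and their partners 3 did, Crem, Akap9 and Akap12, and only the anchoring protein gene Akap9 held shared regions, 2 of them. Its highest folds were 4.41, 4.85 and 4.59 in TIMELESS replicates 1, 2 and 3. Crem and Akap12 each held 1 peak, of replicate 3, with folds of 3.63 and 7.06. Of 24 clock genes 3 did, Arntl2, Csnk1d and Timeless, with no shared region, although Arntl2 held 3 peaks of replicate 2. Gria4, an AMPA receptor subunit gene, was the only one of 17 ionotropic glutamate receptor genes in a window. It held 1 shared region, of TIMELESS replicates 1 and 3, with folds of 5.06 and 6.42. The highest fold of replicate 2 in the gene was 4.45, at a peak outside that region. Of 22 replication fork genes Timeless and Mcm10 lay in the windows, and of 13 telomere genes only Rtel1, a helicase gene, did. None of these 3 held a peak of any library. The share of all genes without a peak was not computed, so whether this is usual for genes in the windows cannot be told. Timeless itself lies in the telomere-side window of chromosome 10, at chr10:128232063-128252941.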

How the data were processed

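Formaldehyde-fixed, sonicated hippocampal chromatin was sequenced as 3 TIMELESS ChIP libraries and 1 input library, and the authors deposited 1 peak list per library. MACS 2.1.2 called them in each library alone without a control, per the file headers, at a q value cutoff of 0.05, from reads of 101 bp and at most 1 tag for each position. Bowtie2 2.4, SAMtools 1.14, MACS2 2.1.1, deepTools 2.0 and the mm10 build are named in the submitters' processing notes. How reads that match several places were treated is not given in the sources used here. The deposited pileup is a signal, the fragment coverage at the summit without scaling for depth. Fold enrichment, as deposited, is that pileup over the background which the caller estimated in that library, with 1 added to each. The background has a range of 10000 bp per the file headers. The deposited p-value and q-value are −log10 values. All are the authors' own values per peak.

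Summits were placed in windows of 3 Mb, and each library gave 1 value per window set. Windows and rest were compared by an exact two-sided sign-flip permutation test over the 3 TIMELESS libraries, and its p-values concern only these libraries. The p is 0.25 whenever all 3 differ from the rest in the same direction, whatever their spread. TIMELESS peaks with at least 1 bp of overlap were merged into regions, placed by the summit of highest fold. Regions over input peaks were kept and marked. The code was tested on simulated data. Gene positions came from RefSeq for GRCm38.p6, without exons or introns. Of its genes 338, among them 105 protein-coding, have positions outside the spans and were left out. Promoter sequences came from RefSeq.

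Named regions were, per window set, the 8 of all 3 libraries with the largest smallest fold and up to 8 over an input peak by input fold. Named genes were those that hold them or are nearest, the 5 protein-coding genes with the most shared regions and any tied with the fifth, and members of 6 gene lists that lie in a window. Named chromosomes were the 3 highest and 2 lowest in shared regions. Terminal peaks, chromosome blocks, regions at Pcca, near Pthlh, at Grk5, near Ccr1, at Shank2, Rapgef5 and Cdca7l, and Gm2977 were added after their values were seen. Members and lists were chosen with earlier results of these data known. Alternatives were other window sizes, thresholds, overlaps, and leaving out a library, a chromosome or the edge. Python 3.11.15, pandas 2.3.3, NumPy 2.4.6 and SciPy 1.17.1 were used.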

Additional observations from a re-analysis of the deposited data

How the results depend on the processing

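Of 76 values recomputed under the alternatives, 55 kept their direction, and in the case of counts their size within 1.5 times, 15 changed direction and 6 counts moved by more. The density over the rest stayed above 1 on the centromere side under all alternatives tried. On the telomere side the mean ratio of 1.04 was 0.981 with 5 Mb windows, 0.972 without replicate 1, 0.989 without peaks over input peaks, 0.9996 without chromosome 14, 0.914 without the outermost 0.5 Mb and 0.993 without peaks within 1 kb of the edge. The median pileup ratio of 0.990 was 1.08 with 1 Mb windows, 1.05 at a −log10 q of at least 5, 1.02 at a fold of at least 5, 1.02 without replicate 2 and 1.01 without replicate 3. The difference in sharing of 1.92 points was -0.321 with 5 Mb windows, 6.89 with 1 Mb windows, 1.15 without the peaks within 1 kb of the edge and 0.451 without peaks over input peaks. The difference in the share of summits in protein-coding genes of 1.91 points was -2.73 with 1 Mb windows, -1.01 at a fold of at least 5 and -0.729 without chromosome 14. The difference in the share over input peaks, 4.48 points, stayed positive and was 10.6 with 1 Mb windows, 8.50 at a −log10 q of at least 5, 2.74 with 5 Mb windows and 2.77 without the peaks within 1 kb of the edge. The 646 shared regions became 289 with 1 Mb windows, 1012 with 5 Mb windows, 289 at a −log10 q of at least 5 and 147 at a fold of at least 5. The cause of these changes was not tested, other than that smaller windows and stricter thresholds hold fewer regions.

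Leaving out each TIMELESS library in turn gave ranges of 1.23 to 1.47 for the centromere-side density, 0.972 to 1.12 for the telomere-side density, 0.947 to 1.02 for pileup, 1.30 to 2.88 points for sharing, 2.19 to 6.22 points for overlap with input peaks, 0.805 to 2.65 points for coding genes and 259 to 523 shared regions. No paired analysis was possible because the input is a single library that shares only the number 1 with the TIMELESS libraries. Peaks over repeated sequence depend on how reads were placed, and no genome was used here to read those sequences. The depth of the libraries limits which weak peaks pass, and no comparison over 3 libraries could reach a p below 0.25.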

Other observations

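The sex chromosomes were outside the windows compared above. The X chromosome also ended in a peak of all 4 libraries. At chrX:170880852-170881420 the folds were 27.7, 28.4 and 28.01 in TIMELESS replicates 1, 2 and 3, against 27.8 in the input, with pileups of 234, 220 and 330 in the TIMELESS replicates and 91 in the input. The Y chromosome had a peak within 1 kb of its span end only in TIMELESS replicate 3, with a fold of 4.26.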
